A study of Mus musculus with 121 samples.

Results

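A set of 10 genes of the NF-kB network was followed through every library of the series: the transcription factor subunits Nfkb1 and Rela, the inhibitors Nfkbia and Tnfaip3, the cytokine Il6, and the chemokines Ccl2, Ccl7, Cxcl1, Cxcl5 and Cxcl12. They were chosen by name, matched from Ensembl identifiers to mouse symbols, and make up 10 of the 31053 genes in the count tables. All but Il6 passed a filter of at least 1 CPM (counts per 1000000) in at least 3 libraries, so that 9 of them were tested among 13292 genes.

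The cells were Per2::Luc fibroblasts, an immortalized line from mouse ear that carries a luciferase knock-in at the clock gene Per2, grown to passage 25. All cultures went through 3 cycles of 24 h with a medium change every 12 h. In HL, 12 h in medium rich in glucose and insulin came before 12 h in poor medium, in LH the order was reversed, and in HH rich medium was given at both changes. After 12 h without further changes, RNA was taken at 6 collections 4 h apart and sequenced by 3′DGE, a method that counts a transcript at its 3′ end, which is why CPM was not divided by transcript length. By the sample titles HL had 21 libraries, LH 22 and HH 19, which makes 62, and each collection of a treatment had 2 to 4. The study's methods call replicates biological, but the labels do not tie a library to a culture, and the p-values measure the spread between these libraries only. The line is a single cultured population, so that in its bulk RNA fewer cells of a kind and less RNA per cell cannot be told apart.

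NF-kB is a dimer, most often of the p50 protein made from Nfkb1 and the p65 protein made from Rela, that inhibitors such as IkBα (Nfkbia) hold in the cytoplasm. Signals from cytokine and Toll-like receptors lead to the breakdown of IkBα, and the freed dimer enters the nucleus and switches on cytokine and chemokine genes together with Nfkbia and Tnfaip3, whose protein A20 ends the signal. Fibroblasts are known to answer such signals with Il6, with the monocyte attractants Ccl2 and Ccl7 and with the neutrophil attractants Cxcl1 and Cxcl5, whereas Cxcl12 is a chemokine that stromal cells make without stimulation.

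Start regions are shown because they are where the DNA element bound by NF-kB was searched for. RefSeq sequences of 250 bases before to 50 bases after the start (build GRCm38.p6) were at hand for Rela, Nfkbia, Tnfaip3, Il6, Cxcl1 and Cxcl12. For Nfkb1, Ccl2, Ccl7 and Cxcl5 there was no entry. The core GGNNTTTCC, which reads GGAAANNCC on the other strand, was searched on both strands. It was found in the first promoter of 4 of the 6 genes, with 2 matches each in Nfkbia, Tnfaip3 and Cxcl1 and 1 in Il6, and not in Rela, Cxcl12 or a second promoter of Tnfaip3. Of all 32851 promoters in the table, 1913 (5.82%) hold a match. Below, matches stand in capitals, each sequence runs 5′ to 3′ along the gene, and that of Cxcl12 is given as the one without a match. They cover chr12:55492598-55492897 (minus strand) for Nfkbia, chr10:19015361-19015660 (minus) for Tnfaip3, chr5:30012864-30013163 (plus) for Il6, chr5:90890995-90891294 (plus) for Cxcl1 and chr6:117168285-117168584 (plus) for Cxcl12.
Nfkbia: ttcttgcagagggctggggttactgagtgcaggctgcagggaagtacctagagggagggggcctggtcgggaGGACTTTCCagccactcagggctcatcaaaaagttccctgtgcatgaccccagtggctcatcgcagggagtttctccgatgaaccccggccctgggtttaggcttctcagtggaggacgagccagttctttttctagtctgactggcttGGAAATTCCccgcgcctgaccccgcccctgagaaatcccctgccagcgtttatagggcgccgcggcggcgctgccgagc
Tnfaip3: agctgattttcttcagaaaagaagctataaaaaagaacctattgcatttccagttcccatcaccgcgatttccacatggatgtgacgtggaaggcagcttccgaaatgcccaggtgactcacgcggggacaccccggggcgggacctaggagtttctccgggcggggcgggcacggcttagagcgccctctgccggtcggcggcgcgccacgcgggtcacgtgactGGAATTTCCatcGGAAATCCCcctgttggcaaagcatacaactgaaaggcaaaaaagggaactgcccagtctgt
Il6: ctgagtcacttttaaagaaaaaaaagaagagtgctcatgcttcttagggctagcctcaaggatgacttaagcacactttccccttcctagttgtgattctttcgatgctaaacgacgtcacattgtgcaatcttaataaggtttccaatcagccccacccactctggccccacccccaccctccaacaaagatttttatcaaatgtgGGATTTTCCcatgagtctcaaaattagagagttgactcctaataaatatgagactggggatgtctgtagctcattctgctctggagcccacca
Cxcl1: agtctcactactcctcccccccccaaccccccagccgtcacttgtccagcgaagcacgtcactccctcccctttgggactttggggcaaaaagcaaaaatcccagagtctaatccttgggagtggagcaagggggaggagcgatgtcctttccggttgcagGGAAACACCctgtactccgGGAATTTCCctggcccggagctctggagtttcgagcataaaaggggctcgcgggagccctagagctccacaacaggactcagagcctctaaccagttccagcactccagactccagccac
Cxcl12: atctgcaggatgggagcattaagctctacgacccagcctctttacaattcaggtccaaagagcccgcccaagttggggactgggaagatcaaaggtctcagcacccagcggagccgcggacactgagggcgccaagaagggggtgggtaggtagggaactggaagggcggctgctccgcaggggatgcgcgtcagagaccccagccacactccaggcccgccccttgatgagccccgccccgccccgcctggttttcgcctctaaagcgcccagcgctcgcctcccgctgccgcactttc
The matches of Cxcl1 began 89 and 70 bases before its start, those of Tnfaip3 24 and 12 bases, those of Nfkbia 178 and 29 bases, and that of Il6 43 bases. A match describes the letters of the window and does not show that a factor binds there.

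The genes lie on 7 chromosomes of GRCm38. Nfkb1 spans chr3:135584655-135691547 on the minus strand, Rela chr19:5637483-5648130 on the plus strand, and Nfkbia and Tnfaip3 lie on chromosomes 12 and 10. The plus-strand neighbours Ccl2 (chr11:82035571-82037453) and Ccl7 (chr11:82045712-82047525) are 8258 bases apart, and Cxcl5 (chr5:90759360-90761624) and Cxcl1 (chr5:90891241-90893115) 129616 bases. Ccl2 lies wholly within the overlap with the antisense gene Gm17268, and Nfkb1 shares 3897 bases with Gm43430 on its own strand, so that reads in these stretches may have been left out or credited to either gene.

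Libraries had 104912 to 11619095 counts. Only 1, the second replicate of LH collection 2, had under 1000000, where a gene at 10 CPM has about 1 count, and the next lowest had 2136819. The library numbers on the deposited tables disagree with the titles: for 40 libraries of HL and LH the study's read summary gives the number another name or does not list it. Which source is right is not known, and the results are given by titles and again by library numbers, which leave 57 libraries, 19 per treatment, with a single one in LH collection 5. The 5 that are not listed drop out. HH is the same in both. The clock hours in the titles do not follow the 4 h spacing either: collections 1 to 6 carry 20, 12, 4, 8, 12 and 16 in HL and HH, and 20, 12, 16, 20, 12 and 16 in LH. Times here were therefore set from the collection number, at 4 h a step, and not from those hours. Fibroblast markers were high in every library, the 10 markers summing to 17890 to 40980 CPM outside the shallow one. The leukocyte list gave 14.0 to 59.5 CPM, the epithelial list 0.356 to 4.57 and the endothelial list 22.8 to 269.7 CPM, of which Kdr made up nearly all.

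By level, Nfkbia led the set, with a mean of 303 CPM ± 85.7 (SD, n = 62). Cxcl12 followed with 84.7 ± 23.9 CPM, then Rela with 66.4 ± 11.6 and Nfkb1 with 22.9 ± 5.41. The ranges of Cxcl12 and Rela overlapped widely, and whether these neighbours in the order differ was not tested. The inducible chemokines were lower and far more uneven between libraries: Cxcl1 averaged 12.1 ± 22.5 CPM, Ccl2 9.38 ± 18.2, Ccl7 7.67 ± 8.82 and Cxcl5 1.69 ± 1.74, with SDs near or above their means. Tnfaip3 averaged 3.36 ± 3.36 CPM. Il6 was close to absent, with 43 counts in all, above 0 in 19 of 62 libraries and at most 1.11 CPM, so that it was not tested. HL held 24 of its counts, LH 11 and HH 8, from 7, 6 and 6 libraries.

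**Figure D1:**
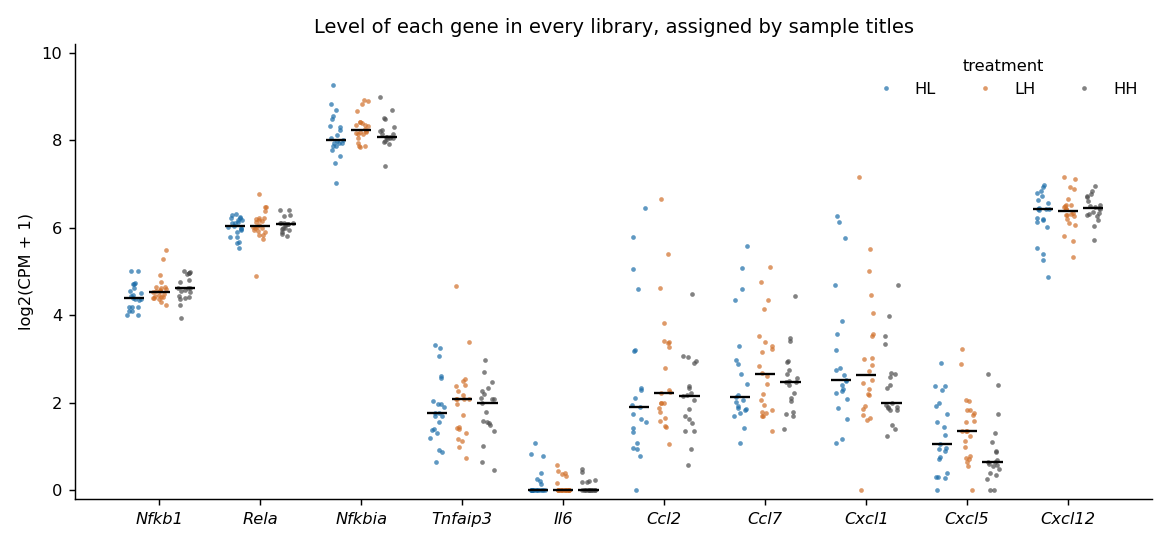
Log2(CPM + 1) of the 10 genes by sample titles, 1 point per library for HL, LH and HH, with a bar at each treatment's median. Nfkbia, Cxcl12, Rela and Nfkb1 form narrow bands, while Cxcl1 and Ccl2 spread from 0 to 142 and 99.7 CPM with a few libraries far above the rest.

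The first question was whether the order and richness of the media set the average level of these genes. By titles no difference was called for a regulator. Nfkb1, which encodes the p105 precursor of p50, had a median of 20.1 CPM in HL (14.96 to 31.5), against 22.3 in LH (range 17.8 to 43.9) and 23.5 in HH (range 14.3 to 31.1). Rela medians were 65.1, 64.9 and 67.0 CPM, and Nfkbia ranged from 128 to 608 CPM in HL, from 227.7 to 481 in LH and from 170 to 509 in HH. The ranges of the 3 treatments overlapped for each, and the 95% intervals of the log2 differences of Nfkb1, Rela and Nfkbia lay between -0.26 and 0.37.

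The chemokines differed more, but none passed the test after adjustment over genes. The median of Cxcl1, a neutrophil attractant, stood at 4.73 CPM for HL (1.12 to 75.6), 5.18 for LH (0 to 142) and 2.98 for HH (1.37 to 24.8), and the treatments overlapped. Its log2 fold change was -0.98 (SE 0.47) for HH against HL, with adjusted p = 0.660 in edgeR, and 0.97 (SE 0.47) for LH against HH, with adjusted p = 0.883. The LH against HH differences of Ccl2 and Cxcl5 were 0.98 (SE 0.52, adjusted p = 0.883 in edgeR) and 0.83 (SE 0.42, adjusted p = 0.883). Cxcl12, the unstimulated stromal chemokine, had medians of 84.5, 82.6 and 86.6 CPM in HL, LH and HH, and Tnfaip3 of 2.37, 3.23 and 2.99 CPM. For Ccl7 the medians were 3.37, 5.26 and 4.56 CPM, and for Cxcl5 1.07, 1.56 and 0.550 CPM. The 95% intervals of the LH against HL differences were -0.17 to 0.26 for Cxcl12, -0.46 to 0.76 for Tnfaip3 and -0.84 to 0.83 for Cxcl1. The intervals of Cxcl1 for HH against HL, -1.91 to -0.05, and for LH against HH, 0.05 to 1.89, left out 0, without adjustment over genes.

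The thresholds were p under 0.01 over the 3 treatments and under 0.05 in the comparison, without adjustment over genes. They follow the study's cutoffs, but with edgeR contrasts in place of its analysis of variance and multiple comparison test, and for LH against HH as well. By titles 0 of the 9 genes passed this rule in edgeR's quasi-likelihood test for HH against HL, LH against HL or LH against HH, where 1.2%, 1.16% and 0.91% of all genes did. At an unadjusted p under 0.05 in the comparison alone, 1, 0 and 1 of them passed, Cxcl1 in both cases, beside 7.42%, 5.69% and 5.23% of all genes, a share near that background, and DESeq2 gave 0, 0 and 1 at that level and 0 past both thresholds. Without replicate 4 of HH, Cxcl1 and Cxcl5 passed the rule in HH against HL and in LH against HH. That replicate was the highest HH library for Cxcl1 in 4 of 5 collections and for Cxcl5 in 2, so that its removal from HH alone lowers Cxcl1 there. Without all replicates 4 by library numbers neither passed, with HH against HL at -0.38 (SE 0.26) and -1.45 (SE 0.51).

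By library numbers Cxcl1 passed the rule in LH against HL, with a log2 fold change of 1.15 (SE 0.52, adjusted p = 0.620 in edgeR), and in LH against HH, with 1.66 (SE 0.51, adjusted p = 0.278). Its median stood at 4.44 CPM for HL (1.26 to 44.8), 5.22 for LH (1.12 to 142) and 2.98 for HH, so that the treatments overlapped here too. It was the 1 gene of 9 in each comparison, beside 1.34% and 1.63% of all genes, and 0 of 9 passed in HH against HL beside 0.568% (0 at an unadjusted p under 0.05). Ccl2 gave 1.37 (SE 0.54, adjusted p = 0.383 in edgeR) for LH against HH and missed the threshold over treatments, and it was 0.62 (SE 0.35) with a replicate block and -0.39 (SE 0.31) without all replicates 4. The 2 passes of Cxcl1 rested on single libraries: they were lost without replicate 4 of LH collection 3, 4 or 6, with LH against HL then 0.69, 0.84 or 0.57, and without all replicates 4 the differences were 0.17 and 0.56. Of the cell type markers, the endothelial gene Pecam1, with a mean of 0.280 CPM, passed in LH against HH (2.27, SE 0.71), and its part was not tested.

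Among related genes, 0 of the 38 tested pathway genes passed the rule in any comparison by titles or numbers, and 2 of 38 had an unadjusted p under 0.05 in edgeR in each comparison by titles, against 0, 3 and 5 by library numbers for HH against HL, LH against HL and LH against HH. Of all genes 7.42%, 5.69% and 5.23% had such a p by titles and 3.62%, 7.63% and 10.24% by library numbers, so that these counts are near the background. Of 19 other NF-kB target genes, Saa3, an acute-phase protein, passed by titles in HH against HL (1.01, SE 0.26) and LH against HL (0.66, SE 0.25), and C3, a complement component, in LH against HL (0.48, SE 0.15) and LH against HH (0.44, SE 0.16). By library numbers Ier3, an early-response gene, and Ptgs2, the inducible cyclooxygenase, passed as Cxcl1 did in LH against HL and LH against HH. The differences were 1.31 and 1.60 for Ier3 (adjusted p = 0.553 and 0.236 in edgeR) and 1.13 and 1.52 for Ptgs2 (adjusted p = 0.620 and 0.262). Saa3 then passed with 0.70 in HH against HL and -1.12 in LH against HH, and its LH against HL difference turned from 0.66 by titles to -0.42 (SE 0.26) by library numbers. That of C3 turned from 0.48 to -0.08, and those of Ier3 and Ptgs2 were -0.25 and -0.02 by titles. No pass of these target genes held after adjustment over genes, the smallest adjusted p in edgeR being 0.123 (Saa3, LH against HH by library numbers). Of the other chemokines (9 or 10 tested) and the receptors (3 tested), 0 passed in any comparison, and at an unadjusted p under 0.05 in edgeR this held but for 1 chemokine in LH against HH by library numbers.

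The second question was whether these genes changed over the day. With times set from the collection number, the rank test JTK_CYCLE at a period of 24 h called 0 of the 9 genes in HL, LH and HH by titles, where 0.82%, 1.53% and 1.99% of all genes were called at p under 0.01, and 0 by library numbers, where 1.83%, 2.14% and 2% were. None reached an unadjusted p of 0.05 either: the smallest was 0.0772 by titles, for Nfkb1 in LH, and 0.0653 by library numbers, for Cxcl12 in LH. A cosine fitted in edgeR gave unadjusted p = 0.0133 for Cxcl1, 0.0167 for Tnfaip3 and 0.0335 for Nfkb1 in LH by titles and nothing under 0.05 for the 9 genes by library numbers.

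A test for any difference between the 6 collections of a treatment, whatever its shape, called Tnfaip3 (adjusted p = 0.00443), Cxcl1 (0.00905) and Ccl2 (0.0420) in LH by titles with edgeR, 3 of 9 genes beside 2.93% of all genes. DESeq2 called the same 3 and Nfkb1. All 3 had their highest LH value at the second collection, 4 h after the first by collection number. There Cxcl1 stood at 142, 0 and 31.4 CPM in the 3 libraries, the 0 in the shallow one, against 2.03 to 44.8 CPM in the other LH collections. Ccl2 stood at 99.7, 9.53 and 9.36 CPM there, against 1.08 to 41.4 CPM in the other LH collections. Tnfaip3 stood at 24.2, 9.53 and 4.68 CPM, against 0.677 to 4.83 CPM. Each 9.53 is 1 count in the shallow library. The highest value was that of replicate 1 in each gene, and without this library the adjusted p rose to 0.698 for Tnfaip3, 0.638 for Cxcl1 and 0.709 for Ccl2. The call of Ccl2 was the least stable: with each of the 22 LH libraries left out in turn it was lost in 13 cases, with adjusted p up to 0.0722 in edgeR besides that library, and those of Tnfaip3 and Cxcl1 in 1 case each. Ccl2 also lost its call without LH replicate 3 or 4 or any 1 of the HH replicates. The same test called the pathway genes Myd88, Tlr3 and Tnfrsf1a among 38 tested, and the targets Cxcl10, Ier3 and Ptgs2 among 19 tested. It also called 4 of 7 leukocyte markers (Csf1r, Lyz2, Ptprc and Tyrobp), again beside 2.93% of all genes. Whether these calls rest on the same single library was not tested, nor was their part in the result.

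In HL and HH the collections test called 0 of the 9 genes by titles, beside 0.301% and 0.293% of all genes. At an unadjusted p under 0.05 it gave 5 in HL (Nfkbia, Ccl2, Ccl7, Cxcl1 and Cxcl12) and 0 in HH, where 8.98% and 8.61% of all genes had such a p, and DESeq2 gave 0 in both after adjustment and 6 and 1 before it. The HL values were uneven too. Cxcl1 read 10.8, 25.02, 68.9 and 8.21 CPM at the second collection, 4.73, 75.6 and 5.69 CPM at the fifth and 2.07, 3.66, 53.3 and 2.65 CPM at the sixth, 1 library standing above the others each time. Ccl2 was high in those libraries too, with 85.9, 53.9 and 32.4 CPM against at most 23.1, 3.86 and 1.69 CPM in the rest of each collection, and Ccl7 with 46.6, 32.6 and 23.2 CPM. In these 3 libraries Cxcl12 stood at 28.4, 37.3 and 41.2 CPM, the lowest of its collection each time.

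By library numbers the collections test called 0 of the 9 genes in HL, LH and HH with edgeR, beside 0.394%, 1.05% and 0.803% of all genes, and 0, 4 and 1 at an unadjusted p under 0.05, beside 5.49%, 14.3% and 10.5%. A treatment by collection interaction was called for 0 of 9 by titles, beside 0.128%, with 2 at an unadjusted p under 0.05 (Tnfaip3 and Nfkb1, beside 11.6% of all genes) and 1 called by DESeq2 (Tnfaip3). By library numbers it was called for 0 of 9 beside 0% of all genes, with 0 at an unadjusted p under 0.05.

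**Figure D2:**
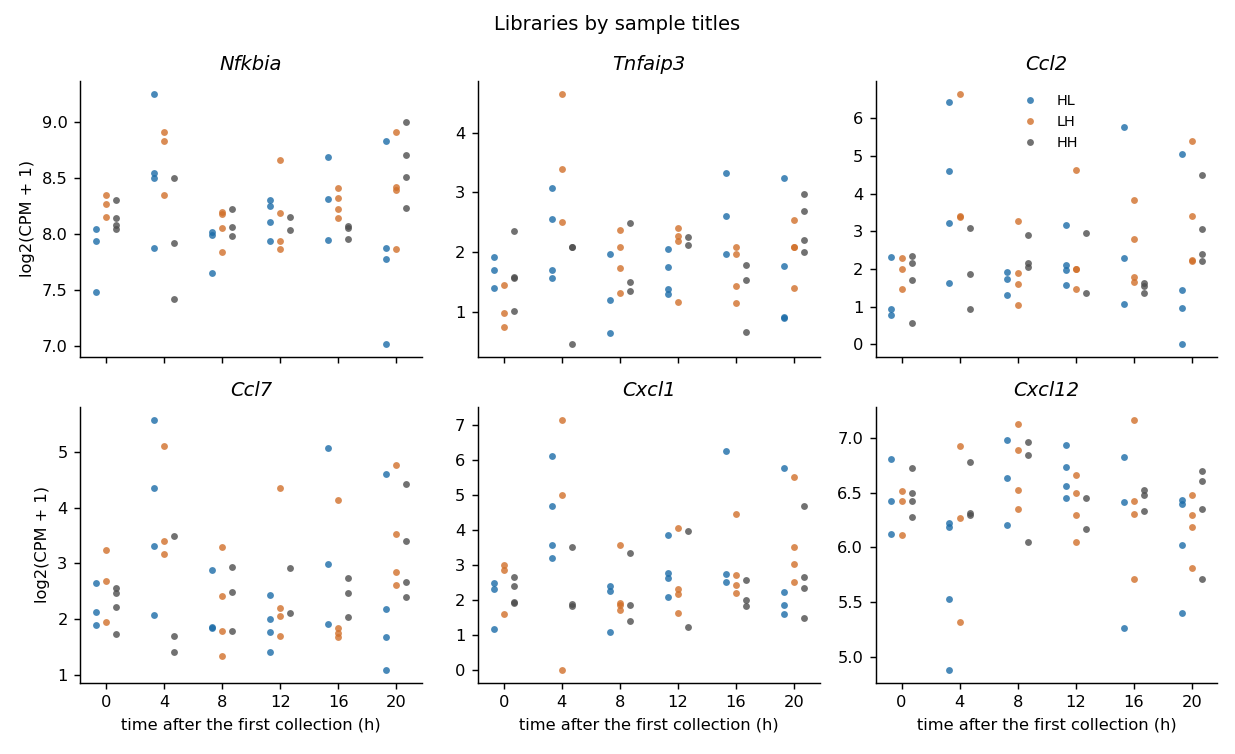
Log2(CPM + 1) of 6 genes against the time after the first collection, by sample titles, 1 point per library. In HL and LH single libraries at 4, 16 and 20 h lie far above the others for Ccl2, Ccl7 and Cxcl1. Without the library of the highest LH point at 4 h, the LH collection calls of Tnfaip3, Cxcl1 and Ccl2 are lost.

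By library numbers, the high values of Ccl2, Ccl7 and Cxcl1 fell on the libraries named replicate 4, of which there were 15. The 5 libraries whose number is not listed carry no replicate name and are left out of this pattern, and some of them were high too: those titled HL collection 2 replicates 2 and 3 had 25.02 and 68.9 CPM of Cxcl1, 23.1 and 85.9 CPM of Ccl2 and 19.3 and 46.6 CPM of Ccl7, the last the highest Ccl7 value of the series, and that titled LH collection 2 replicate 4 had 31.4 CPM of Cxcl1. This comparison was chosen after the values had been seen, and while the study's methods speak of biological replicates, they do not say what a library's replicate number marks (a day, a chip or another unit). In the same test by library numbers, replicate 4 was called against the rest for 3940 genes, replicate 1 for 6, replicate 2 for 72, with 1 of the 9 genes (Ccl7), and replicate 3 for 0 (1515 at an unadjusted p under 0.05 in edgeR). In HL alone replicate 2 stood apart too, with 886 genes, among them Nfkbia and Ccl2, beside 1708 for replicate 4. Replicate 4 was the highest library for Cxcl1 in 13 of the 15 treatment and collection groups that hold one, for Ccl2 in 13 and for Ccl7 in 14, and the lowest for Cxcl12 in 13. In collections 2 to 6 all 12 groups showed this for each of the 4 genes.

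Cxcl1 had a lowest, median and highest value of 2.76, 14.8 and 142 CPM in the 15 libraries of replicate 4 and of 1.12, 3.64 and 10.6 CPM in the 42 of replicates 1 to 3. The median of replicate 4 lay above the highest of the others, and the low end overlapped. The edgeR log2 fold change within treatment and collection was 2.75 (SE 0.26, 6.70-fold, adjusted p = 5.17e-12). The monocyte attractant Ccl2 had 0.487, 8.65 and 99.7 CPM against 0, 2.54 and 9.58 CPM, a difference of 2.81 (SE 0.28, adjusted p = 3.71e-11), and Ccl7, its neighbour on chromosome 11, 4.38, 10.23 and 33.2 CPM against 1.13, 3.16 and 10.6 CPM, a difference of 2.16 (SE 0.19, adjusted p = 1.38e-12). Cxcl5, also on chromosome 5, rose by 1.71 (SE 0.34, adjusted p = 9.73e-05), from a median of 0.701 to 2.59 CPM, with the highest single value, 6.33 CPM, outside replicate 4.

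The inhibitors rose less. Nfkbia had 257.8, 339 and 481 CPM in replicate 4 and 128, 264.4 and 509 CPM in the others, a difference of 0.45 (SE 0.074, adjusted p = 3.95e-06 in edgeR). Tnfaip3 had 1.28, 3.24 and 24.2 CPM against 0.367, 2.34 and 6.84 CPM, a difference of 0.89 (SE 0.30, adjusted p = 0.0200). The subunit Rela was higher by 0.18 (SE 0.066, adjusted p = 0.0386), with medians of 67.7 and 63.3 CPM and overlapping ranges. For Nfkb1 the difference was 0.11 (SE 0.11, adjusted p = 0.497). Cxcl12 moved the other way, with 37.3, 65.4 and 89.4 CPM against 64.0, 88.7 and 143 CPM, and fell by 0.59 (SE 0.078, adjusted p = 3.91e-08).

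Thus 7 of 9 genes were higher in replicate 4, beside 15.7% of all genes tested by library numbers (2073 of 13198), and 1 was lower, beside 14.1%. The median log2 difference was 0.89 over the 9 genes and -0.0094 over all genes, where rises and falls cancel. In size, whatever the sign, the medians were 0.89 and 0.214. The comparison was chosen after the values of these genes had been seen, and Ccl2, Ccl7 and Cxcl1 deviate together. The counts therefore describe the set and do not test it. When each library of replicate 4 was left out in turn, Ccl2 stayed at 2.48 to 3.00, Ccl7 at 1.99 to 2.27, Cxcl1 at 2.45 to 2.91 and Cxcl12 at -0.65 to -0.55, all still called. The calls of Rela and Tnfaip3 were lost without some libraries, with adjusted p up to 0.153 and 0.182 in edgeR. By titles the libraries titled replicate 4 differed for 0 of 9 genes, beside 0% of all genes, with 1 of the 9 at an unadjusted p under 0.05 (Nfkb1).

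**Figure D3:**
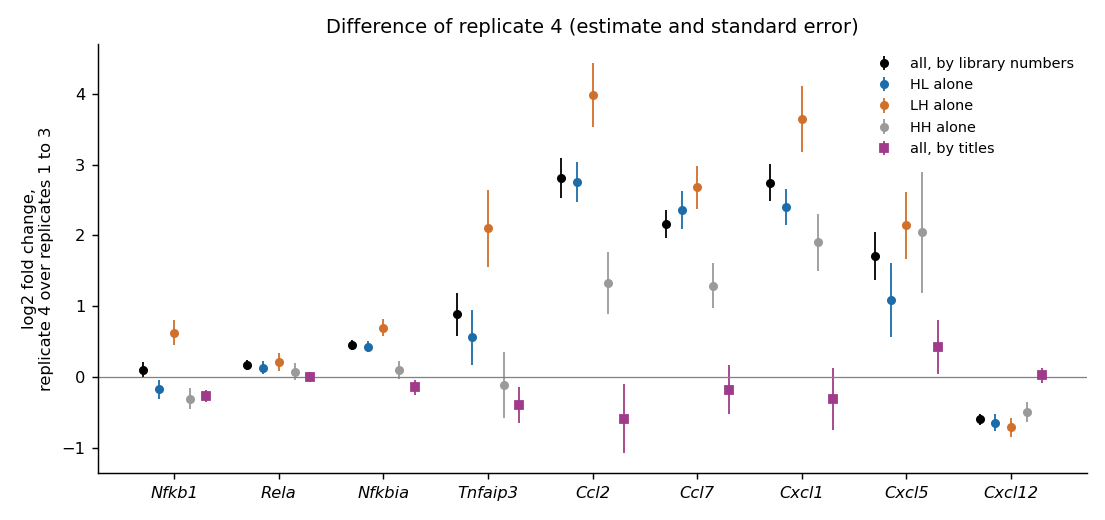
Log2 fold change of replicate 4 over replicates 1 to 3 for the 9 tested genes, with standard errors as bars, for all libraries by library numbers, for HL, LH and HH alone, and for all libraries by titles. Ccl2, Ccl7 and Cxcl1 lie above 0 and Cxcl12 below 0 in all 3 treatments by library numbers. By titles Ccl2, Ccl7 and Cxcl1 lie below 0.

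The difference was also taken within each treatment and along the collections. In HH, the treatment whose names do not conflict, Ccl7 (1.29, SE 0.32, adjusted p = 0.0401) and Cxcl1 (1.90, SE 0.41, adjusted p = 0.0145) were called with edgeR in HH alone, 2 of 9 beside 1.48% of all genes. Ccl2 gave 1.33 (SE 0.44, adjusted p = 0.150) and Cxcl12 -0.49 (SE 0.14, adjusted p = 0.0826) there. In HL alone 5 of 9 were called (Nfkbia, Ccl2, Ccl7, Cxcl1 and Cxcl12) beside 13.9%, and in LH alone 8 of 9, all but Rela, beside 26.3%. The log2 difference of Ccl2 was 2.76 for HL, 3.98 for LH and 1.33 for HH, and that of Cxcl1 2.40, 3.64 and 1.90. Whether these differ between treatments was not tested.

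Over the 3 treatments together, the gap of 3 genes widened along the collections. Cxcl1 in replicate 4 read 4.65, 10.97, 15.6, 21.2 and 44.8 CPM in HL collections 1 to 5. It read 3.83, 13.5, 75.6 and 53.3 CPM in LH collections 1 to 4 and 142 CPM in the sixth, and 2.76, 10.5, 9.09 and 14.8 CPM in HH collections 1 to 4 and 24.8 CPM in the sixth. Each of the first-collection values lay within the range of replicates 1 to 3 (1.12 to 10.6 CPM), and all but 1 of the later values were above 10 CPM. The gap grew by 0.75 on the log2 scale per collection for Cxcl1 (SE 0.13, adjusted p = 7.18e-05 in edgeR), by 0.65 for Ccl2 (SE 0.16, adjusted p = 0.00471) and by 0.56 for Tnfaip3 (SE 0.17, adjusted p = 0.0296), 3 of 9 genes beside 9.94% of all genes. Within treatments a slope was called for 5 of 9 genes in LH alone (Nfkb1, Nfkbia, Tnfaip3, Ccl2 and Cxcl1), beside 16.4% of all genes, and for 0 in HL alone and 0 in HH alone, beside 0.301% and 0.155%, where 2 and 4 genes had an unadjusted p under 0.05 in edgeR, beside 8.53% and 13.3%. The slope of Cxcl1 was 0.56 in HL (SE 0.18), 0.94 in LH (SE 0.17) and 0.54 in HH (SE 0.19), and that of Tnfaip3 0.26, 1.09 and -0.18. Ccl2 read 4.01 CPM in the first HL collection and 41.4 CPM in the fifth, 2.34 and 99.7 CPM in the first and sixth of LH, and 0.487 and 21.4 CPM in the first and sixth of HH. Cxcl12 read 68.7 and 55.2, 72.6 and 39.0, and 89.4 and 51.5 CPM at the same points, and its gap slope missed the threshold (-0.12, adjusted p = 0.0730 in edgeR).

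**Figure D4:**
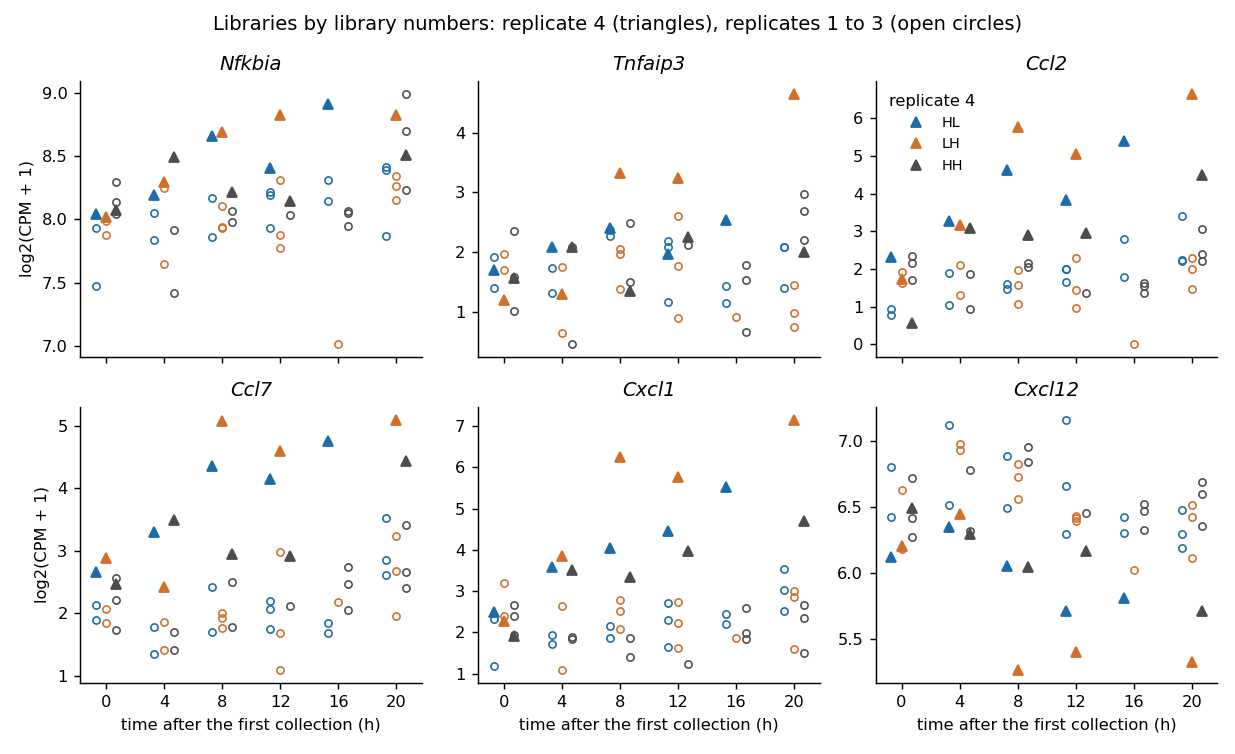
Log2(CPM + 1) of 6 genes against the time after the first collection, by library numbers, with replicate 4 marked apart from replicates 1 to 3. The replicate 4 points of Ccl2, Ccl7 and Cxcl1 lie above those of their treatment from 4 h on and those of Cxcl12 below, while at 0 h they lie closer, with Ccl7 at 5.30, 6.38 and 4.55 CPM in HL, LH and HH against at most 4.91 CPM in the others.

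Depth did not separate these libraries, with a median of 5834019 counts in replicate 4 and 5881700 in the others. Several marker lists moved with the number, where 15.7% of all genes were called higher in replicate 4 and 14.1% lower. The 8 leukocyte markers summed to 20.4 to 59.5 CPM (median 30.8) in replicate 4 and 14.0 to 38.2 (median 20.7) in the others, with 3 of 7 tested higher (Cd14, Csf1r and Itgam), while the defining leukocyte gene Ptprc did not pass (-0.03, adjusted p = 0.950 in edgeR) and Adgre1 had a median of 0 in both. The 10 fibroblast markers summed to medians of 28575 and 32874 CPM, with 7 lower, among them Col1a1 and Dcn, and 2 higher, Pdgfrb and S100a4. The endothelial list had medians of 134 and 194 CPM, with Kdr lower and Cdh5, Tek and Emcn at a median of 0, and the muscle and pericyte list 228.7 and 351 CPM, with Acta2 and Cspg4 lower. The epithelial list gave 1.82 and 1.99 CPM, with 0 of 2 tested called by edgeR and 0 at an unadjusted p under 0.05. The part of these changes in the result was not tested.

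Among other genes of the NF-kB pathway, from receptors and adaptors to further subunits and inhibitors, 12 of the 38 tested differed in replicate 4, 8 higher and 4 lower, with a median difference of 0.04 over the list against -0.0094 over all genes. That count is near the background, since 29.9% of all genes were called in either direction. The largest rises among the genes called were those of the receptor Tlr2, from a median of 31.9 to 60.8 CPM (1.38, SE 0.14), of Nfkbiz, a nuclear IkB protein, from 6.07 to 13.0 CPM (1.33, SE 0.22), and of the adaptor Traf2, from 15.4 to 27.6 CPM (1.08, SE 0.15). Myd88, the adaptor of Toll-like receptors, was higher by 0.63 (SE 0.10), Tlr3 by 0.61 (SE 0.12), Tab2 by 0.34, the TNF receptor Tnfrsf1a by 0.28 and the inhibitor Nfkbib by 0.28. Tnfrsf1b fell by 0.71, the kinase Ikbke by 0.76, the subunit gene Nfkb2 by 0.44 and Tnip1, which works with A20, by 0.42. The remaining subunits Rel (-0.13, adjusted p = 0.218) and Relb (0.08, adjusted p = 0.575) did not pass in edgeR.

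Of 19 other target genes 8 differed, 7 higher and 1 lower, beside 15.7% and 14.1% of all genes, with a median of 0.16. Ier3 rose from a median of 136 to 354 CPM, with a highest value of 4508 CPM in replicate 4 and 209 CPM outside it (2.20, SE 0.25). Ptgs2 rose by 1.79 (SE 0.30), to 265.9 CPM in 1 library. Cxcl10 rose by 2.21 (SE 0.39), though its highest value, 33.9 CPM, lay outside replicate 4, where it reached at most 11.3 CPM. Ccl5 rose by 1.35 (SE 0.24), Csf1 by 0.79, Junb by 0.51 and Bcl2l1 by 0.45, while the adhesion gene Vcam1 fell by 0.72. Tnf, Il1a, Il1b and Cxcl2, classic targets in macrophages, averaged at most 0.128 CPM and were not tested. Among 9 other chemokines Ccl8 rose by 0.98 (SE 0.16). Of the receptors, those of the inducible chemokines, Ccr2 and Cxcr2, averaged under 0.02 CPM, and Ackr3, an atypical receptor that binds Cxcl12, fell by 1.11 (SE 0.22) and Il6st, the shared chain of Il6-family receptors, by 0.32 (SE 0.061).

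The genes also varied together between replicate libraries. Over 61 libraries by titles, without the shallow one, and after removal of treatment and collection means, 19 of the 45 gene pairs were correlated at an adjusted p under 0.05 in a two-sided permutation test with 100000 shuffles (18 by Spearman's rho). Without Il6 these are 52.8% of the 36 pairs, while 14.3% of all pairs among the 13292 tested genes had an r as far from 0 as the smallest one called (0.374), so that correlated deviations were common in these libraries. Ccl2 and Cxcl1 had r = 0.893 and rho = 0.818 (both permutation p = 1e-05, the smallest these shuffles give, adjusted p = 6.43e-05 for r and 9e-05 for rho), and r = 0.858 without the 2 libraries farthest from the median of Ccl2. Ccl7 had r = 0.893 with Cxcl1 and 0.869 with Ccl2. Nfkbia correlated with Ccl2 at r = 0.770 and with Tnfaip3 at 0.593, and Cxcl12 correlated negatively with Ccl7 (-0.780), Cxcl1 (-0.766) and Ccl2 (-0.762). Nfkb1 was in no correlated pair, the nearest being Cxcl1 at r = 0.141 (adjusted permutation p = 0.558).

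By library numbers 20 of the 45 pairs were correlated over 56 libraries, with r = 0.915 for Ccl2 and Cxcl1. Without replicate 4, among replicates 1 to 3 by library numbers (40 libraries), 2 pairs were correlated: Rela with Nfkbia (r = 0.640, rho = 0.596, permutation p = 0.00128, adjusted p = 0.0288 for r and 0.0529 for rho) and Rela with Cxcl12 (r = 0.545, rho = 0.588, permutation p = 0.0006, adjusted p = 0.0270 for r and 0.0495 for rho). Ccl2 and Cxcl1 then had r = 0.275 (adjusted permutation p = 0.579) and Ccl7 and Cxcl12 had r = 0.0901. Replicate 4 has 1 library per group, so that no deviation within it could be computed. Within HL alone 19 pairs were correlated, within LH alone 6 and within HH alone 3, where Ccl2 and Cxcl1 had r = 0.842 and Ccl7 and Cxcl1 r = 0.810 (adjusted permutation p = 0.0315 for both). For library numbers and for these subsets the share over all gene pairs was not computed.

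**Figure D5:**
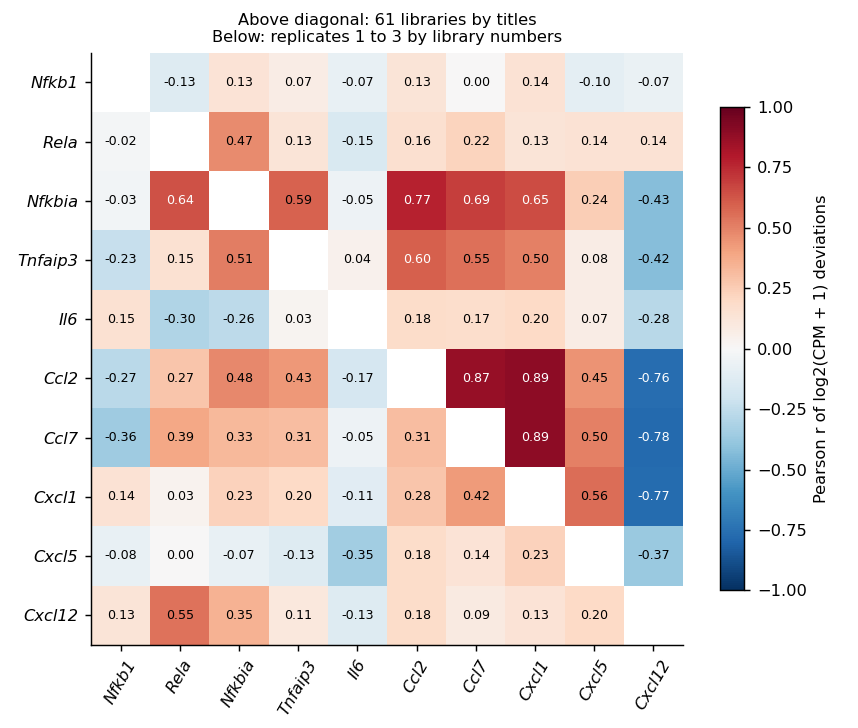
Pearson r of the deviations of log2(CPM + 1) for the 45 gene pairs, above the diagonal over 61 libraries by titles and below it over replicates 1 to 3 by library numbers. Ccl2 and Cxcl1 have r = 0.893 above the diagonal and 0.275 below it, and Ccl7 and Cxcl12 -0.780 above and 0.0901 below, where by library numbers with replicate 4 the values are 0.915 and -0.776.

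Across 7781 genes of at least 10 CPM, the pattern most like that of Cxcl1 was shown by Sesn1 (r = 0.910), Map2k4 (0.901) and Gem (0.886) over the same 61 libraries. For Nfkbia these were Bod1 (0.911), Pim3 (0.898) and Max (0.888), and for Cxcl12 Pmp22 (0.898), Fscn1 (0.893) and Ahr (0.882). The likeness was weaker for Rela, led by Irf2bp2 (0.722), Mapk3 (0.707) and Sun2 (0.704), and for Nfkb1, led by Cdr2 (0.571), Tead1 (0.550) and Etv3 (0.512). All points share their libraries, and no test was made.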

How the data were processed

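The authors deposited raw counts of reads per gene for 121 sequencing runs of 62 libraries. Per the submitters' processing notes they were made with bcl2fastq, STAR 2.6.0a and HTSeq 0.9.1 on mm10, and use of the strand is not given in the sources used here. Reads on no feature (median 22.3% of unique reads) or ambiguous (0.383%) stayed out. Runs of a library were summed, and 30934 of 31053 identifiers had a symbol. The study's filter of 2500 genes above 5 CPM removed no run.

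Genes reaching 1 CPM in 3 or more libraries were tested with TMM scaling in edgeR 4.0.16 (quasi-likelihood, R 4.3.3), with DESeq2 1.42.0 as an alternative. Levels used unadjusted thresholds of 0.01 over treatments and 0.05 in a comparison, after the study's cutoffs but without its multiple comparison step, collections and replicate 4 a Benjamini-Hochberg adjusted p under 0.05, and rhythms JTK_CYCLE with phases every 2 h and p under 0.01. Correlations used deviations of log2(CPM + 1), a pseudocount that shrinks differences of low genes, from treatment and collection means. The tests were tried on simulated data. All 10 genes are named, with the genes of related lists called in a comparison discussed and the 3 genes most alike by r. The genes and lists were chosen with earlier results of these data known. Names by library number came from the study's read summary. Libraries of a group differed by more (chi-square over degrees of freedom at least 2.92) than repeat runs (at most 2.09), and each was counted as 1.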

Additional observations from a re-analysis of the deposited data

Results flagged for a closer look

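In groups of 4 libraries by titles, 16 of 81 gene and group combinations (9 genes in 9 groups) had 1 library far from the rest by Dixon's test at the 95% level, where chance marks about 1 in 20 and 8.84% of such combinations were marked over all tested genes. The combinations are not separate tests, since a few libraries recur and Ccl2, Ccl7 and Cxcl1 deviate together. In HL collection 6, replicate 3 had 32.4 CPM of Ccl2, 23.2 of Ccl7 and 53.3 of Cxcl1, against at most 1.69, 3.54 and 3.66 CPM in the other libraries. In LH collection 4, replicate 2 had 23.6 CPM of Ccl2, 19.4 of Ccl7 and 15.6 of Cxcl1, against at most 3.00, 3.58 and 3.95. In LH collection 5, replicate 2 had 16.6 CPM of Ccl7 and 21.2 of Cxcl1, against at most 2.59 and 5.61. In LH collection 6, replicate 1 had 41.4 CPM of Ccl2 and 44.8 of Cxcl1, against at most 9.58 and 10.6, and replicate 4 had 6.33 CPM of Cxcl5, against at most 2.37. In LH collection 3, replicate 3 had 11 CPM of Cxcl1, against at most 2.82. In HH collection 6, replicate 4 had 24.8 CPM of Cxcl1 and 5.27 of Cxcl5, against at most 5.34 and 0.314. Rela was low in 2 libraries, at 55.8 CPM in LH collection 4 replicate 3 (63.0 to 64.1 in the others) and 63.1 CPM in HH collection 1 replicate 1 (67.1 to 67.9).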

How the results depend on the processing

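Over 12 counts of genes or pairs, all but 52 of 331 alternatives stayed within 1.5 times the count reported, with 0 beside 0 taken as the same. Most of the 12 counts were 0, so that this share says little about the counts above 0. Between library numbers and titles, the replicate 4 differences of Ccl2, Ccl7 and Cxcl1 turned from 2.81, 2.16 and 2.75 to -0.58, -0.17 and -0.31, and Cxcl1 in LH against HL from 1.15 to -0.0042.

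For levels, Cxcl1 and Cxcl5 (2 genes) passed in HH against HL and LH against HH without HH replicate 4, and leaving out each replicate gave 0 to 2. Cxcl1 (1 gene) passed in LH against HL and LH against HH by library numbers, and with each library of replicate 4 left out the count was 0 or 1, lost without that of LH collection 3, 4 or 6. Of the 27 fold changes by titles, 6 changed sign by library numbers and 20 by library numbers without all replicates 4. For rhythms, the second sequencing run alone called 1 gene in HH, Nfkbia. Between collections, no filter on low counts called 5 genes for HL, 5 for LH and 4 for HH, and unadjusted p-values 5 in HL and 5 in LH. LH fell to 0 by library numbers, without LH replicate 1 and without its collection 2 library. The interaction gave 1 gene without HL replicate 3, 5 without a filter, 1 with DESeq2 and 2 unadjusted. Correlated pairs fell from 19 to 12 with the second run alone, 6 in LH, 3 in HH and 2 by library numbers without replicates 4. The replicate 4 difference gave 0 genes by titles, 5 in HL alone and 2 in HH alone. The replicate 4 alternatives were chosen after seeing the data. The causes were not tested.

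Same-numbered libraries did not all deviate together: the correlation was over 0.1 in 15 of 52 pairs by titles and 33 of 43 by library numbers. Among replicate 4 by library numbers it was over 0.1 in 13 of 13 pairs (mean 0.345), against a mean of -0.062 for pairs of other numbers. Among replicate 4 by titles it was over 0.1 in 5 of 16 pairs (mean 0.00325). The rule asked for every pair to pass, so that the numbers were not used as pairs in the main fits. By library numbers those fits therefore keep the deviation shared by same-numbered libraries in their spread. For Cxcl1 in LH against HL the SE was 0.52 without a replicate block and 0.28 with it. With a replicate block by titles, 4 genes differed between LH collections (Nfkb1 added, adjusted p = 0.0497 in edgeR). With the replicate block by library numbers Cxcl1 (1 gene) passed in LH against HL, at 0.76 in place of 1.15, and in LH against HH, LH collections gave 0 genes and HH collections 1, Nfkbia.

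Depth limits Il6, with 43 counts in all, and the library of 104912 counts, where 3 counts are 28.6 CPM.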
